A study of Mus musculus with 6 samples.

Results

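The miR-15/16 family comprised 6 of the 1174 mouse miRNA hairpin genes to which reads were assigned, Mir15a, Mir15b, Mir16-1, Mir16-2, Mir195a and Mir322. These genes were chosen by name, and their products were counted from the reads that matched their hairpins. Bone marrow monocytes (BMMs) from wild-type C57BL/6 mice were cultured without LPS (control, 3 samples) or with super-low-dose LPS at 5 pg/ml (LPS, 3 samples). The study's methods give PBS for the control and an exposure of hours rather than days. LPS is lipopolysaccharide, the endotoxin of Gram-negative bacteria. The labels do not say whether samples of a group came from separate mice or cultures, so p-values measure the spread between these samples, which may be technical. The 6 samples held 2201520 to 17691405 small RNA reads, of which 61.6% to 71.0% matched a hairpin, and levels are given as reads per 1000000 hairpin reads (RPM). LPS 2 stood apart, with the most reads and the smallest share of distinct sequences read a single time, 18.6% against 67.1% to 74.6% elsewhere.

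A miRNA gene is transcribed as a folded RNA whose hairpin is cut by the enzymes Drosha and Dicer. The cuts free a short duplex made of the 5p arm and the 3p arm, and the terminal loop between the arms is discarded. One arm is held by an Argonaute protein and represses messenger RNAs that pair with its seed, the bases 2 to 8 from the 5′ end. In the miR-15/16 family the 5p arm is the usual guide, and its best known targets are the anti-apoptotic gene Bcl2 and cyclins that drive the cell cycle. The 15 and 16 hairpins lie side by side in paired clusters, so each pair is cut from a common transcript.

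Mir15a (chr14:61632027-61632110, GRCm38, minus strand) and Mir16-1 (chr14:61631880-61631972, minus strand) are separated by 54 bases within Dleu2, a non-coding host gene. Mir15a lies in an intron of it, whereas 13 bases of the Mir16-1 hairpin overlap an annotated exon. Mir15b (chr3:69009772-69009835, plus strand) and Mir16-2 (chr3:69009902-69009996, plus strand) are 66 bases apart in an intron of Smc4, which encodes a condensin subunit. Mir195a (chr11:70235042-70235135, plus strand) lies 241 bases from Mir497. Mir322 (chrX:53054255-53054349, minus strand) lies 200 bases from Mir503. No gene other than a miRNA is annotated around these last hairpins.

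The 5p arms, the guides, carry 1 seed in common. Their mature sequences (RefSeq, GRCm38.p6) are given here with the seed in capitals.
miR-16-5p: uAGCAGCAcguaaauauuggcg
miR-15a-5p: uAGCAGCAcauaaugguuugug
miR-15b-5p: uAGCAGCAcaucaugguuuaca
miR-195a-5p: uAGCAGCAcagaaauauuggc
miR-322-5p: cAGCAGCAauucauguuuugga
The seed AGCAGCA was found in 10 of the 1679 mature mouse sequences of that table, and these 5 are among them. Mir16-1 and Mir16-2 give the same 5p sequence, so miR-16-5p was counted once for both genes. Counted from 1 at the 5′ end of miR-16-5p, miR-195a-5p differs over their 21 common positions by G10A and U11G, and miR-15a-5p differs over 22 by 6 bases, G10A, A14U, U15G, A16G, G19U and C21U. Between miR-15a-5p and miR-15b-5p the 4 differences, A12C, G20A, U21C and G22A, all lie outside the seed.

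The guides are 21 or 22 nt long, so their levels were compared without a correction for length. miR-16-5p was among the most read products of these BMMs, and it made up most of the family's reads in every sample. Its level was 25132, 29376 and 34159 RPM in control 1, 2 and 3 and 25290, 42796 and 34920 RPM in LPS 1, 2 and 3. It ranked between 4 and 9 among all arms in the 6 samples. The 5p arms of the 6 genes together made up 3.28% ± 0.472 (SD, n = 3) of the hairpin reads in control and 3.77% ± 0.908 (SD, n = 3) in LPS. Of the family's 5p reads, miR-16-5p was 90.0% ± 0.818 in control and 90.8% ± 1.43 in LPS (SD, n = 3).

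The other guides of the family were far below miR-16-5p. miR-15a-5p, the partner of miR-16 in the Dleu2 cluster, was at 1233, 1371 and 1493 RPM in control and 1220, 1960 and 1525 RPM in LPS. miR-322-5p was at 1120, 1280 and 1306 RPM in control and 1157, 1129 and 1292 RPM in LPS. Within each of the 6 samples miR-15a-5p was above miR-322-5p, although the ranges of these 2 guides over the samples of a group overlapped. miR-15b-5p, the partner of miR-16 in the Smc4 cluster, was at 663, 606 and 618 RPM in control and 645, 562 and 592 RPM in LPS, below both of them in every sample. miR-195a-5p was the rarest guide, at 10.9, 9.34 and 10.6 RPM in control and 17.4, 16.5 and 12.7 RPM in LPS. These low levels rest on 16 to 180 reads a sample. Over the first 20 bases, 5 to 73 reads a sample differed from miR-16-5p only by G10A and 5 to 25 only by U11G, whereas 16 to 180 carried both, more than either alone in every sample.

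**Figure D1:**
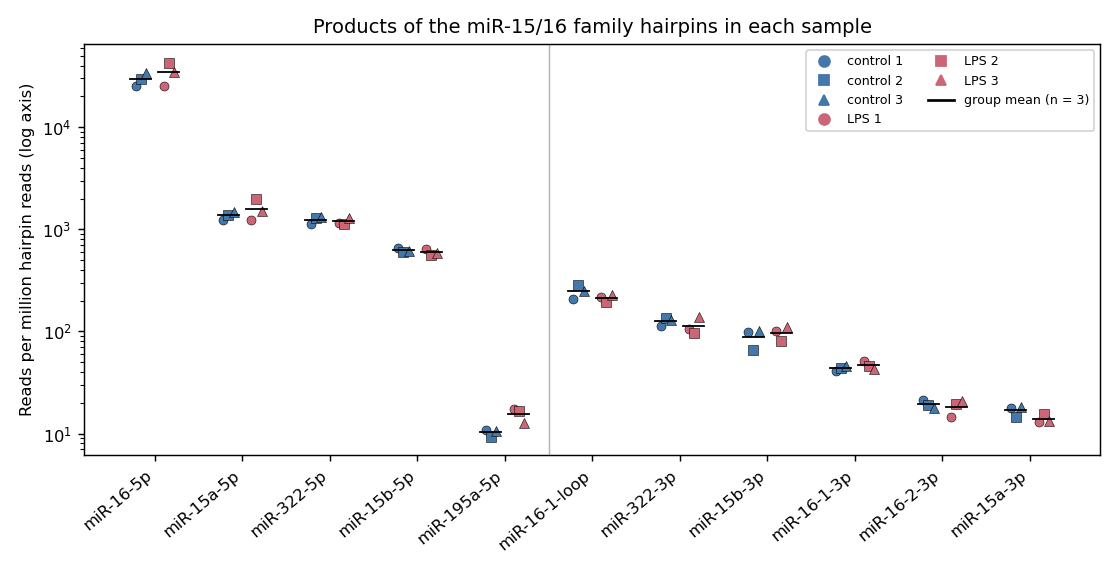
Level of each product of the family in RPM (log axis), with 5p arms left of the vertical line and the Mir16-1 loop and 3p arms right of it. Each point is a sample, blue for control and red for LPS, and each black bar is the mean of a group (n = 3). miR-16-5p sits between 25132 and 42796 RPM, above every other product, and miR-195a-5p is the product whose LPS samples all lie above the control samples.

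No product of the family passed the test between LPS and control. Of 13 products with reads, 11 passed the filter on low counts and were tested in edgeR by quasi-likelihood, with p-values adjusted over all 321 arms by the method of Benjamini and Hochberg. The number with an adjusted p under 0.05 was 0 of 11 and also 0 of 321 (0%), and 1 member and 7 arms in all had an unadjusted p under 0.05. By DESeq2 0 of the 316 arms that received a p passed the adjusted threshold and 4 had an unadjusted p under 0.05, and by limma-voom these counts were 0 and 5. The log2 fold change was above 0 for 5 members and below 0 for 6, with a median of -0.08, where 50.8% of all arms were above 0 and their median was 0.0014.

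The level of miR-16-5p differed by a log2 fold change of 0.19 (SE 0.20, adjusted p = 0.997) and that of miR-15a-5p by 0.17 (SE 0.18, adjusted p = 0.997). Both values rested on LPS 2, the highest sample for each, since without it they were -0.03 and -0.05. For miR-15b-5p the log2 fold change was -0.10 (SE 0.13) and for miR-322-5p it was -0.08 (SE 0.11), with the same adjusted p. The summed 5p level of the family was 0.18 higher in LPS on the log2 scale (two-sided exact permutation test, p = 0.4, where 3 against 3 samples cannot give less than 0.1), and 0.02 higher without LPS 2. Compared by replicate number it was higher in LPS in all 3 pairs, at 28160 and 28329 RPM in control 1 and LPS 1, 32642 and 46463 RPM in control 2 and LPS 2, and 37586 and 38343 RPM in control 3 and LPS 3. With the replicate block the exact permutation p was 0.25, the smallest that 3 pairs allow, and the labels do not say that equal numbers mark pairs. miR-16-5p was likewise higher in LPS in each pair, by far the most in the pair with LPS 2.

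miR-195a-5p had the largest log2 fold change of the members, 0.58 (SE 0.23, unadjusted p = 0.0435, adjusted p = 0.997). Its 3 LPS samples were above its 3 control samples, which held for 1.56% of the arms tested, and an unadjusted p under 0.05 with a higher level held for 1.87% (for 0.312% with a lower level). Without LPS 2 the log2 fold change was 0.53. Across 18 alternatives it ran from 0.48 to 0.73 and the adjusted p from 0.454 to 0.999. The unadjusted p of these edgeR, DESeq2 and limma-voom fits ran from 0.0257 to 0.135 and was under 0.05 in 6 of them. Its 3p arm was nearly absent, with 5, 1 and 3 reads in control and 4, 0 and 1 in LPS. The 0 reads of LPS 2 allow a level of up to 0.275 RPM, by the limit of 3 counts, which covers counting error only.

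The 3p arms tell the clusters apart, since miR-16-1-3p and miR-16-2-3p differ in sequence. They are shown because the comparison of 15 with 16 inside each cluster rests on them. The capitals mark bases 2 to 8, which differ in each.
miR-15a-3p: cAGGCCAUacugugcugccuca
miR-16-1-3p: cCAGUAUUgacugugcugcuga
miR-15b-3p: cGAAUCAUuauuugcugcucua
miR-16-2-3p: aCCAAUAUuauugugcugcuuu
In the Dleu2 cluster the 16 hairpin gave more 3p reads than the 15 hairpin, and in the Smc4 cluster fewer, in every sample. miR-15a-3p was at 17.99, 14.6 and 18.2 RPM in control and 12.9, 15.5 and 13.3 RPM in LPS. miR-16-1-3p was at 41.5, 44.3 and 45.7 RPM in control and 51.1, 45.9 and 42.7 RPM in LPS, above all values of its neighbour. The ratio of 15a-3p to 16-1-3p reads was 0.387 ± 0.0534 in control and 0.301 ± 0.0430 in LPS (SD, n = 3). miR-15b-3p was at 98.5, 65.4 and 102 RPM in control and 102, 80.8 and 110 RPM in LPS. miR-16-2-3p was at 21.1, 19.2 and 17.8 RPM in control and 14.5, 19.5 and 20.7 RPM in LPS, below its neighbour throughout. The ratio of 15b-3p to 16-2-3p reads was 4.6 ± 1.17 in control and 5.49 ± 1.44 in LPS (SD, n = 3).

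Among the guides the order of 15a and 15b was the opposite of that of their 3p arms. There were 2.18 ± 0.288 reads of miR-15a-5p for each read of miR-15b-5p in control and 2.65 ± 0.802 in LPS (SD, n = 3), whereas miR-15a-3p was below miR-15b-3p in all 6 samples. The 5p to 3p ratio was therefore 81.6 ± 12.7 for Mir15a and 7.35 ± 1.69 for Mir15b in control, and 112 ± 16.4 and 6.23 ± 0.793 in LPS (SD, n = 3). For Mir322 it was 9.85 ± 0.270 in control and 10.7 ± 1.28 in LPS (SD, n = 3). That of Mir16-1 and Mir16-2 cannot be given, because their 5p reads are shared. Each read of miR-16-5p was matched by 0.0465 ± 0.00268 reads of miR-15a-5p in control and 0.0459 ± 0.00228 in LPS (SD, n = 3), and the groups overlapped.

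Reads at the edges of the 5p arm gave another view of the 16 hairpins. Between 99.8% and 99.9% of the miR-16-5p reads matched both hairpins equally well. Reads that ran past the shared sequence at either end and matched only Mir16-1 numbered 47, 26 and 38 in control and 65, 308 and 24 in LPS. Those that matched only Mir16-2 numbered 69, 54 and 73 in control and 84, 412 and 41 in LPS. Mir16-1 had fewer of these 5p reads than Mir16-2 in all 6 samples (0.561 ± 0.106 reads for each of Mir16-2 in control and 0.702 ± 0.102 in LPS, SD, n = 3). By 3p reads it was the higher (2.28 ± 0.305 and 2.65 ± 0.771, SD, n = 3). The 5p counts mix both ends of the arm. Depth 1 base before the mature start was 14.7 RPM in control and 15.6 RPM in LPS on Mir16-2 (group means). On Mir16-1 it was 0.878 and 0.366 RPM. At the first base past the shared 3′ end the group means were 15.04 RPM in control and 14.97 RPM in LPS on Mir16-2. On Mir16-1 they were 262.1 and 235.7 RPM, but reads of its loop (described below) alone gave 246.5 and 214.5 RPM. Apart from these loop reads, Mir16-1 was not below Mir16-2 at that end. Where the reads began thus entered the 5p ratio, which does not rank the 2 hairpins. A base added to the 3′ end after cutting can by chance equal the next hairpin base, and this was not told apart here.

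None of the 10 ratios compared between the groups passed after Benjamini-Hochberg adjustment, and with 3 samples a group none could. The 5p to 3p ratio of Mir15a was 0.46 higher in LPS on the log2 scale, with every LPS sample (94.3, 127 and 114) above every control sample (68.6, 94.0 and 82.2). This gave the smallest p that 3 against 3 samples allow (two-sided exact permutation test, p = 0.1, adjusted p = 0.625). It was the only ratio of the 10 whose groups did not overlap. Without any difference between the groups each ratio has a chance of 0.1 of this, so a single such ratio among 10 is no excess. The gap was narrow, from 94.0 in control 2 to 94.3 in LPS 1, and control 2 rested on 25 reads of miR-15a-3p. For 15a-3p to 16-1-3p the difference was -0.36 (exact permutation p = 0.2) and for 15b-3p to 16-2-3p it was 0.26 (exact permutation p = 0.5), with an adjusted p of 0.625 for both. The log2 fold changes of the 3p arms themselves were -0.30 (SE 0.20) for miR-15a-3p, 0.07 (SE 0.18) for miR-16-1-3p, 0.11 (SE 0.22) for miR-15b-3p, -0.13 (SE 0.22) for miR-16-2-3p and -0.19 (SE 0.19) for miR-322-3p, each with an edgeR adjusted p of 0.997.

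**Figure D2:**
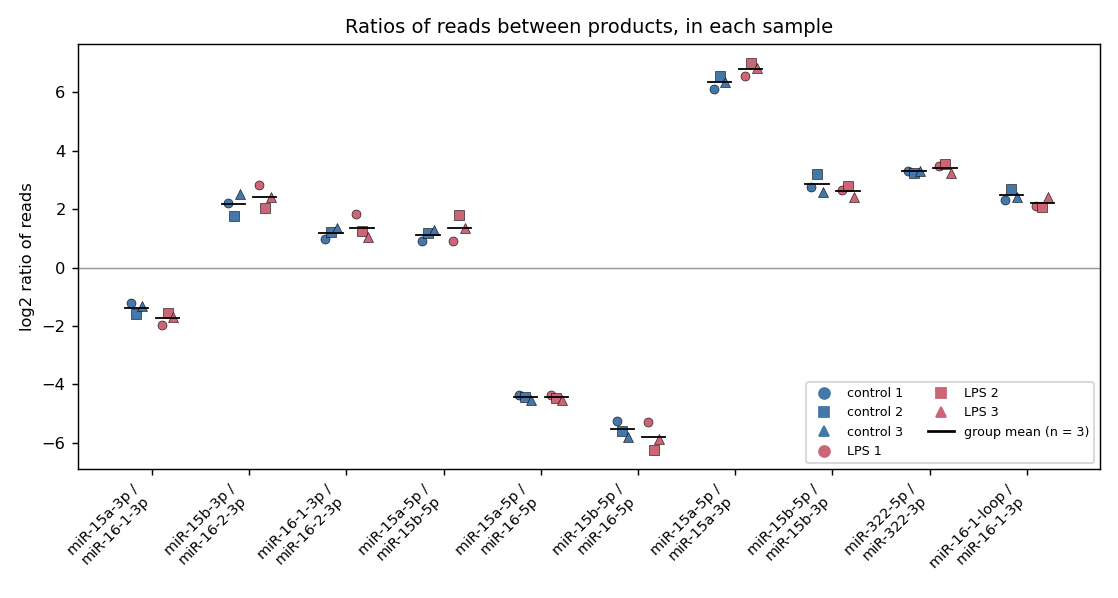
Log2 ratio of the reads of paired products in each sample, blue for control and red for LPS, with black bars at the group means (n = 3) and a grey line at equal reads. miR-15a-3p lies below miR-16-1-3p and miR-15b-3p above miR-16-2-3p in all 6 samples, and the 5p to 3p ratio of Mir15a is the ratio whose groups do not overlap.

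Mir16-1 also left its loop in the libraries, more often than its 3p arm. The loop is the piece between the mature arms, bases 38 to 57 of the hairpin, shown in capitals with 5 bases of each arm beside the loop of Mir16-2, which has the same length.
Mir16-1: uggcgUUAAGAUUCUGAAAUUACCUccagu
Mir16-2: uggcgUAGUGAAAUAAAUAUUAAACaccaa
Reads centred in the Mir16-1 loop were at 207, 285 and 247 RPM in control and 219, 194.6 and 230 RPM in LPS, from 344 to 2126 reads a sample. They outnumbered miR-16-1-3p by 5.61 ± 0.739 to 1 in control and 4.63 ± 0.643 to 1 in LPS (SD, n = 3). Between 98.0% and 98.8% of them were 1 sequence of 20 nt, equal from its first base to its last to the annotated loop. The whole-loop read was counted 523, 483 and 577 times in control and 684, 2094 and 337 times in LPS, and among 141767 annotated mouse transcripts its sequence was found in Mir16-1 alone.

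The loop of Mir16-1 was the most read whole loop among the 649 hairpins for which both mature arms could be placed. Over all samples it had 4698 reads, followed by the loop of Mir221 (14 nt) with 890 and that of Mir15b (16 nt) with 349. Reads that differed from the whole loop at either end were left out of this ranking. The Mir221 loop was not searched for in other transcripts. The Mir15b loop was read 33, 39 and 35 times in control and 28, 191 and 23 times in LPS, and being under 18 nt it was not part of the counts above. A single read of 18 nt or more, in LPS 2, was centred in the Mir322 loop. Whole loops of Mir16-2, Mir195a and Mir322 were read 0 times in each sample and that of Mir15a 11 times in all. Of the reads of 18 nt or more centred in any loop, those of Mir16-1 made up 83.7% to 92.4% in each sample. Only 222 of the 649 loops are 18 nt or longer, and loops under 11 nt are shorter than the shortest deposited read. The level of the Mir16-1 loop did not pass the test between the groups (log2 fold change -0.23, SE 0.17, edgeR adjusted p = 0.997), and its ratio to miR-16-1-3p was -0.28 on the log2 scale (exact permutation p = 0.2, adjusted p = 0.625).

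The loop changes what is counted as miR-16-1-3p. When the hairpin was divided at its midpoint, the loop fell on the 3p side, and miR-16-1-3p rose from a control mean of 43.8 to 288 RPM and from an LPS mean of 46.6 to 258 RPM. Of those reads, 80.2% to 86.4% were the whole loop. The ratio of 15a-3p to 16-1-3p then fell to 0.06002 ± 0.0142 in control and 0.0543 ± 0.00905 in LPS, and that of 16-1-3p to 16-2-3p rose to 15 ± 2.85 and 14.5 ± 3.39 (SD, n = 3).

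**Figure D3:**
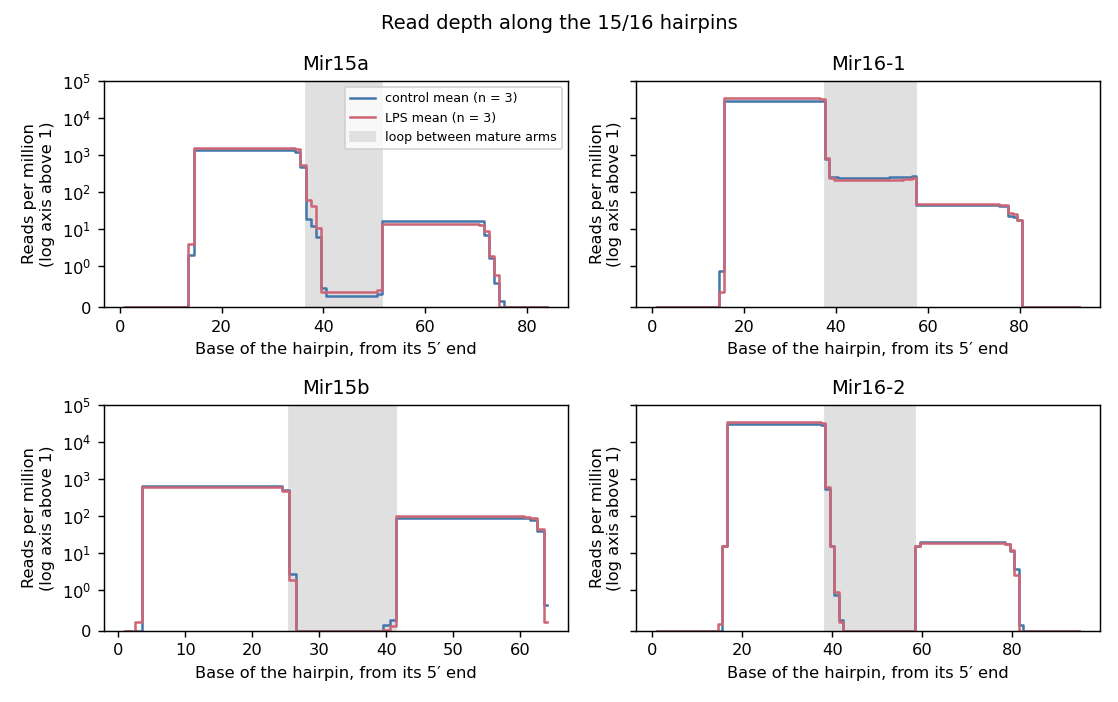
Mean read depth at each base of the hairpins of both clusters, in RPM from reads of at least 18 nt (linear below 1 and logarithmic above), for control (blue) and LPS (red, n = 3 each), with the loop between the mature arms shaded. Reads shared by Mir16-1 and Mir16-2 are drawn in both panels. The depth in the middle of the Mir16-1 loop is 246.5 RPM in control and 214.5 RPM in LPS, with steps near bases 38 and 58, and is at 0 in most of the Mir15b and Mir16-2 loops. Reads of the whole Mir15b loop, which is shorter than 18 nt, are not drawn.

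The 3p arm of Mir16-1 began at several bases. Reads starting at the mature first base made up 52.5% ± 7.56 of miR-16-1-3p in control and 50.7% ± 4.80 in LPS (SD, n = 3). Those starting 1 base earlier made up 27.4% ± 4.62 and 22.9% ± 7.96, and 2 bases earlier 12.7% ± 5.78 and 17.5% ± 2.46. Since the seed is counted from the first base, these reads have other bases at positions 2 to 8, in capitals here.
mature start: cCAGUAUUgacugugcugcugaa
1 base earlier: uCCAGUAUugacugugcugcu
2 bases earlier: cUCCAGUAuugacugugcugcu
For miR-15a-3p and miR-15b-3p, at least 96.0% and 99.5% of the reads of a sample began at the mature start. Those of miR-322-3p did so in 81.1% ± 4.43 of the control reads and 77.4% ± 3.38 of the LPS reads (SD, n = 3). In miR-16-2-3p the other common start was 1 base later, at 9.26% to 28.6% of its reads. The guides were uniform at this end, since at least 97.1% of the reads of miR-16-5p, miR-15a-5p, miR-15b-5p and miR-322-5p began at the mature first base in every sample.

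The 3′ ends set the members apart from each other. miR-16-5p and miR-15b-5p were read mostly as the RefSeq mature sequence, 92.4% ± 0.823 and 78.7% ± 2.83 of their reads in control (SD, n = 3). miR-15a-5p was not, as its 22-nt mature form was 27.1% ± 3.11 of its reads in control and 24.5% ± 0.605 in LPS, and a form 1 base shorter had a mean share of 51.8% over the 6 samples. miR-195a-5p was mostly 1 base longer than the mature sequence, by an A that the hairpin encodes, at a mean of 57.2%. The order turned in LPS 2, the sample with the most reads of this arm, where the mature form was read 84 times and the longer form 78 times of 180.

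Both arms of Mir322 often ended in an added U that its hairpin does not encode, shown in capitals at the end of the most read form of each arm that carries it.
miR-322-5p with U: cagcagcaauucauguuuuggaU
miR-322-3p with U: aaacaugaagcgcugcaacacU
Unmatched U alone ended 34.3% ± 4.70 of the miR-322-5p reads in control and 32.5% ± 6.36 in LPS, and 53.1% ± 4.47 and 50.1% ± 6.18 of the miR-322-3p reads (SD, n = 3). Among the 148 arms with at least 100 reads in every sample the median of this share was 5.92%, and miR-322-3p ranked 3 and miR-322-5p ranked 12. At the other end of that list, unmatched U was 0.0545% of miR-16-5p, at rank 143, and any unmatched base 1.19%, at rank 144. A U added to miR-16-5p would match both 16 hairpins, whose next base is U, and so would not be seen as unmatched. miR-15b-3p carried both kinds of ending, with unmatched U on 16.3% ± 4.95 and unmatched A on 14.8% ± 1.57 of its control reads (SD, n = 3).

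No share of an end form passed the test between LPS and control, and none could, since 3 against 3 samples cannot give p under 0.1. Over the 6 arms with at least 100 reads in every sample, 30 shares were compared by two-sided exact permutation tests, the smallest p was 0.2 and every adjusted p was 1. Unmatched A on miR-322-3p was 8.99% ± 2.62 in control and 5.18% ± 1.43 in LPS (SD, n = 3, exact permutation p = 0.2).

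**Figure D4:**
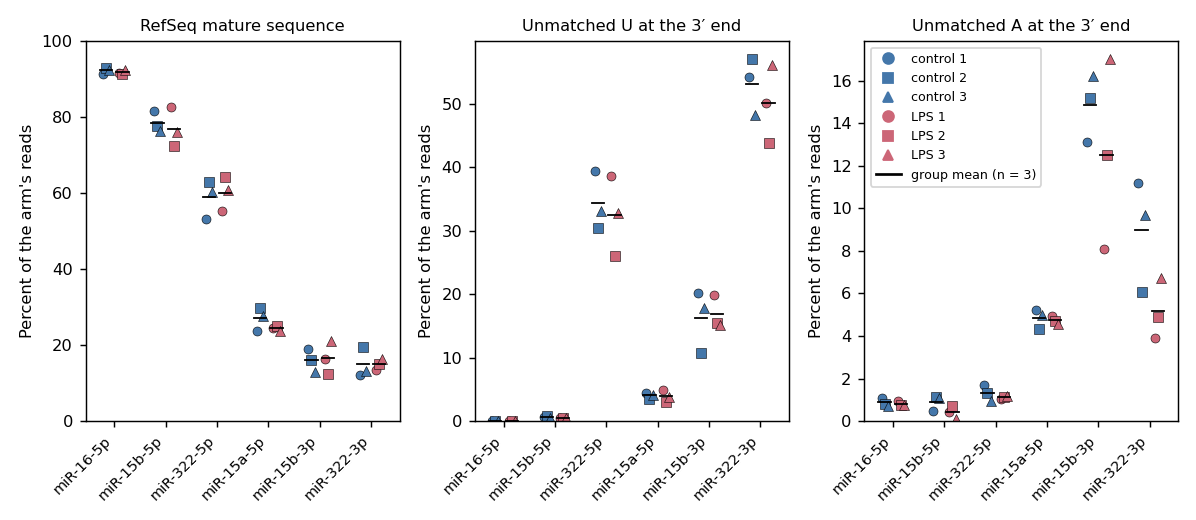
Share of each arm's reads that equal the RefSeq mature sequence (left), end in unmatched U only (middle) or end in unmatched A only (right), in percent, for each sample (blue control, red LPS) with group means as black bars (n = 3). miR-16-5p and miR-15b-5p are nearly all mature or templated, and the arms of Mir322 carry unmatched U on 26.0% to 57.0% of their reads.

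The neighbours and relatives of the family, 11 hairpins in all, gave 12 products with reads, of which 7 passed the filter on low counts. These 7 were miR-497a-5p, miR-351-5p, miR-450a-5p (counted jointly for Mir450-1 and Mir450-2), miR-450b-5p, miR-503-3p, miR-542-5p and miR-542-3p. The others were the 3p arms of Mir351, Mir450-1 and Mir450b, miR-503-5p and the Mir351 loop. Of the 7 tested, the edgeR log2 fold change was above 0 for 4 and below 0 for 3, with a median of 0.19, and the number with an adjusted p under 0.05 was 0. miR-497a-5p, which shares the seed and lies beside Mir195a, was at 19.9, 20.4 and 16.1 RPM in control and 17.99, 26.5 and 20.7 RPM in LPS, with groups that overlapped. miR-351-5p, from the Mir322 cluster but with another seed, was at 1535, 2595 and 2481 RPM in control and 1487, 2018 and 2487 RPM in LPS. Its level was thus above that of miR-322-5p in every sample, and its log2 fold change was -0.17 (SE 0.25, adjusted p = 0.997).

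miR-503-5p, which lies next to Mir322 and has the related seed AGCAGCG, was read 8, 4 and 8 times in control and 12, 1112 and 5 times in LPS. The high value belonged to LPS 2 alone, at 102 RPM against 2.33 to 3.79 RPM in the other 5 samples, and the product did not pass the filter. miR-450b-3p from the same chromosome X cluster was read 198 times in LPS 2 and 2 to 8 times in each other sample. Its level was 18.1 RPM in LPS 2 against 1.27 to 2.53 RPM in the others. Both were among the 21 arms past the adjusted threshold in edgeR when no filter on low counts was used. All 21 had their most reads in LPS 2, and 12 of them had over 90% of their reads there. Having the most reads there does not by itself mark a high level. LPS 2 was the deepest sample, with 10927393 hairpin reads against 1498849 to 3168868 in the others. miR-322-5p itself was at 1129 RPM in LPS 2, within its range in the other samples.

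The arms whose pattern over the 6 samples was most like that of miR-16-5p, among 132 arms outside the family and its neighbours with a mean of at least 100 RPM, were Mir18-5p, Mir872-5p and Mir17-5p. The root mean square difference of their centred log2 levels from those of miR-16-5p was 0.078, 0.094 and 0.10. Without LPS 2, the sample where all were highest, the same arms ranked 16, 27 and 13.

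Of the miRNAs listed as cell type markers, those for monocytes and macrophages had the highest sums, and the others were at low levels, apart from miR-486-5p. How particular each marker is to its cell type was not tested. The 5 monocyte and macrophage markers (miR-223-3p, miR-142-5p, miR-142-3p, miR-146-5p and miR-21a-5p) all had reads in every sample and summed to 161292 to 203248 RPM in control and 159751 to 215937 RPM in LPS. Most of each sum was miR-21a-5p, at 122793 to 164340 RPM, whereas miR-223-3p was at 5607 to 6090 RPM. miR-146-5p was at 55427 RPM in LPS 2, which had the highest sum, against 2822 to 4515 RPM in the other samples. Of the 3 erythroid markers, relevant because red cells are rich in miR-16, miR-144-3p had 0 reads and miR-451a-5p at most 0.584 RPM, while miR-486-5p, counted jointly with Mir3107, was at 609 to 1030 RPM. The lymphoid marker miR-150-5p was at 14.9 to 23.2 RPM in control and 15.1 to 49.2 RPM in LPS, and the 4 epithelial markers summed to 63.0 to 79.3 RPM in control and 63.4 to 152 RPM in LPS. LPS 2 held the highest values of both lists, at 49.2 and 152 RPM, although of the epithelial markers miR-141-3p was at 20.6 RPM there, below its control samples (27.8 to 37.9 RPM), while miR-200a-3p, miR-200b-3p and miR-200c-3p were highest there. Their part in the values of the family in that sample was not tested. Endothelial miR-126a-3p was at 4.003 to 7.19 RPM over the samples, and the stromal, muscle, liver and neuronal markers summed to at most 3.39, 0.584, 1.83 and 3.34 RPM.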

How the data were processed

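Small RNAs of 6 BMM samples, 3 control and 3 LPS, were sequenced. RNA was isolated with miRNeasy and libraries were made with the TruSeq small RNA kit and read on an Illumina HiSeq. Adaptors were removed by the authors, who name perl scripts and Btrim64, and the deposited files hold raw counts of each distinct read of 11 to 40 nt, with no miRNA names and no normalization. The submitters' processing notes name mm9, but the files hold no coordinates, so positions here are those of GENCODE M21 (GRCm38). The labels give DMEM as the medium where the study's methods give RPMI.

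A read of 18 nt or more was placed by exact match on 1174 hairpins, with up to 3 unmatched 3′ bases allowed, and the longest match was kept. Arms that had 50% or more of their reads in common were merged. Reads were counted as 5p, loop or 3p by their centre, against RefSeq mature sequences where both arms could be placed (649 hairpins) and otherwise by the hairpin midpoint. This 3-way division was chosen after the loop reads had been seen. Members and lists were chosen with earlier results of these data known. Different small RNAs enter such libraries with unequal efficiency, so ratios between RNAs are ratios of reads.

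Counts were filtered by filterByExpr, scaled by TMM and tested with edgeR 4.0.16 (R 4.3.3) by the quasi-likelihood test at a threshold of 0.05. Levels in RPM are not TMM-scaled. Ratios (at least 10 reads of both arms in every sample) and end shares (at least 100 reads) were compared by exact permutation tests (scipy 1.17.1). Alternatives were library totals, upper-quartile scaling, DESeq2 1.42.0, limma-voom (limma 3.58.1), no filter, a minimum of 10 counts per sample, the replicate block, each sample left out, exact matches, reads of at least 20 nt and mature sequences only. Chosen after the data had been seen were arms divided at the midpoint and the block without pair 2. The deviations of control and LPS samples with the same number correlated over all arms tested (r = 0.595, 0.265 and 0.272). Between different numbers r ran from -0.385 to 0.154. Deviations from a group mean cancel within the group, so a positive r for equal numbers by itself pushes r between different numbers down. The numbers were therefore taken to pair the samples in the replicate block, but the labels do not say what a number marks. The main edgeR fit and the main exact tests did not use the pairs. Matching and the edgeR test were tested on simulated data.

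By rule the text names the products of the members and of a list of neighbours, the 3 arms most like miR-16-5p and the markers. The neighbours given with values (miR-497a-5p, miR-351-5p, miR-503-5p and miR-450b-3p) were picked after their values were seen. The samples held 1498849 to 10927393 hairpin reads. For miR-16-5p the 95% Wilson interval was 2.49% to 2.53% of the hairpin reads in control 1 and 4.27% to 4.29% in LPS 2, which covers counting error only, since PCR copies were not told apart.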

Additional observations from a re-analysis of the deposited data

How the results depend on the processing

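Of 364 recomputed values for 28 results, 342 kept their direction and their side of the threshold, 21 changed sign without passing the threshold and 1 count moved. The family level, the ratios and the end shares were tested by exact permutation and could not pass the threshold. For these only the direction was free to change, so the 342 is no measure of stability. Without the filter on low counts, 21 of 1026 arms passed the adjusted threshold against 0 with it, 0 of them members and 2 of them neighbours (miR-450b-3p and miR-503-5p). Of the 21, 12 had over 90% of their reads in LPS 2, the deepest sample. In the other fits over all arms the number past the adjusted threshold was 0, the replicate block included (0 arms), and the replicate block changed no call. With mature sequences only, the log2 fold change was -0.0060 for miR-15a-5p and 0.15 for miR-16-2-3p, and the difference of 15b-3p to 16-2-3p was -0.35. The log2 fold change of miR-16-1-3p was -0.017 by upper-quartile scaling and -0.18 with arms divided at the midpoint, where 16-1-3p to 16-2-3p differed by -0.050. With exact matches only, the log2 fold change of miR-322-3p was 0.030, and the ratios 16-1-3p to 16-2-3p and 322-5p to 322-3p differed by -0.0086 and -0.060. In the replicate block without pair 2, that of miR-322-5p was 0.015. The cause of these changes was not tested.

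With each sample left out in turn, the log2 fold change ranged from -0.046 to 0.32 for miR-15a-5p, -0.057 to 0.25 for miR-15b-3p, -0.013 to 0.17 for miR-16-1-3p, -0.027 to 0.37 for miR-16-5p and -0.22 to 0.0070 for miR-16-2-3p. The lowest values of miR-15a-5p and miR-16-5p came without LPS 2. The ratio of 15a-5p to 16-5p ranged from -0.061 to 0.022 and that of 16-1-3p to 16-2-3p from -0.038 to 0.35 on the log2 scale. Unmatched U differed by -4.92 to 1.44 percentage points on miR-322-5p and by -6.11 to 0.076 on miR-322-3p. The number of end shares past the threshold stayed at 0 of 30, where none could pass. Mature sequences alone gave no value for ratios with miR-15a-3p, which had 0 such reads in a sample.

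In the shallower samples miR-195a-5p, miR-15a-3p, miR-16-1-3p and miR-16-2-3p had under 100 reads, but the standard errors did not follow the counts (0.20 for both miR-16-5p and miR-15a-3p). With 3 samples a group, the exact tests could not pass 0.05 whatever the difference, so they say nothing about stability.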
